A study of Mus musculus with 8 samples.

Results

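Topologically associated domains (TADs) of lens fiber cells that had no counterpart in mouse embryonic stem (ES) cells were described. They were chosen by length and position: a TAD of the fiber list on chromosomes 1 to 19 was taken when it was at least 300 kb long and no TAD of the ES list had both ends within 25 kb of its own. Of 2628 fiber TADs, 1096 were at least 300 kb long, and 756 of these (69%) met the rule. They are called unmatched here, and the other 340, which had an ES counterpart, are called matched. Since the fiber and ES lists chose the members, their number and their distance to ES TADs are given as a description, and nothing was tested on them.

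Hi-C, which records pairs of DNA pieces that lie close together in the nucleus, was performed on lens epithelium and lens fiber cells microdissected from newborn CD-1 mice at postnatal day 0.5, with 30 lenses per replicate, and on wild-type v6.5 ES cells grown without feeder cells on gelatin with LIF. CTCF ChIP-seq was performed on both lens cell types, from 200 lenses separated into epithelium and fibers, and 1 sample per cell type was used here. The labels give the ES cells as WT and the lenses as CD-1, and all material was fixed in formaldehyde. Strain, age, culture and cell type differ together between lens and ES cells, so that they cannot be told apart. The authors merged the 2 replicates of each cell type before TADs and loops were called, so that 1 list per cell type was at hand and no error between replicates could be given. The 95% intervals are Wilson intervals, which cover counting error only, and neighbouring TADs are not independent samples.

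A TAD is a stretch of chromosome whose parts contact each other more often than they contact the neighbouring DNA. Cohesin extrudes loops of chromatin and tends to halt at the zinc finger protein CTCF when CTCF sits on its site in the right orientation, which is why many TAD ends carry CTCF and many TADs show a loop between their ends, here called a corner loop. In the lens, epithelial cells on the anterior surface divide and give rise to fiber cells, which leave the cell cycle, fill with crystallins and later lose their nuclei.

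Promoters with CTCF at the ends of these TADs show what such an end can look like at the level of sequence. Start sites of 20085 protein-coding promoters of RefSeq (GRCm38.p6, the assembly also called mm10) were placed against the ends, and 351 lay within 10 kb of an end of an unmatched TAD. In 5 of these, the 300 bases from 250 before to 50 after the start held a CTCF summit in both lens lists. All 5 TADs had a counterpart in the epithelium list. The letters AGGNGGC, a form of part of the core of the CTCF motif, were searched on both strands and are in capitals. Where hits overlap, all their letters are. The form AGANGGC was not searched and stays in lower case, as in agatggc at Med4 and agagggc at Thumpd2.
Synm: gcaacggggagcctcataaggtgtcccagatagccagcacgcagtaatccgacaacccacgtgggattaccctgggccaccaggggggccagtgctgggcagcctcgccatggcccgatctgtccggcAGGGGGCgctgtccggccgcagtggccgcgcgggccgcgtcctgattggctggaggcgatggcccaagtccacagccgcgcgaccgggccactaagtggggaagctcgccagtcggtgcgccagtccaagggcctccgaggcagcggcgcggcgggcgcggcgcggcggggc
Med4: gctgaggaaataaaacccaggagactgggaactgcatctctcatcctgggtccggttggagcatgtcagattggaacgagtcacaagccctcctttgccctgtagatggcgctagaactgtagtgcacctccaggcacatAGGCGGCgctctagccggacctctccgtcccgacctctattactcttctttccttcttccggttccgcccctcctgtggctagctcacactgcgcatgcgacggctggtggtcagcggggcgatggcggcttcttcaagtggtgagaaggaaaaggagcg
Thumpd2: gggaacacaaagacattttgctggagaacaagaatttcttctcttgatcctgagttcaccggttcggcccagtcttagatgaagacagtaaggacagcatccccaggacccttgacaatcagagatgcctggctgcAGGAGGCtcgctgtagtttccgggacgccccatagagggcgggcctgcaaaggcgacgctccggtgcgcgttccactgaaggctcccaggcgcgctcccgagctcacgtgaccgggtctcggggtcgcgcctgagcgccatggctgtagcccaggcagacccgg
Kifap3: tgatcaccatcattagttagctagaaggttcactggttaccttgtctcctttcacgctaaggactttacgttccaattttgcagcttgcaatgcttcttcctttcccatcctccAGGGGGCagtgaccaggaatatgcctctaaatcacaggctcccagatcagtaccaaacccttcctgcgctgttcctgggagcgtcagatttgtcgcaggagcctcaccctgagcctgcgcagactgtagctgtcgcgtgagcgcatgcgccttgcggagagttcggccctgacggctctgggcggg
Ephb1: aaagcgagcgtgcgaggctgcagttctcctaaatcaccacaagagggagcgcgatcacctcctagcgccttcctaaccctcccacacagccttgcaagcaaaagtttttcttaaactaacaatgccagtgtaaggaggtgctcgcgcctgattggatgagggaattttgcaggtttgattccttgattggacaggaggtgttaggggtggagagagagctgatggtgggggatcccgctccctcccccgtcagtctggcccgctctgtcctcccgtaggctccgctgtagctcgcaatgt
The Synm promoter (chr7:67759693-67759992, minus strand; Synm encodes the intermediate filament protein synemin) lay 5.26 kb outside the start of the TAD of Igf1r. The fiber and epithelium summits were 149 and 124 bases upstream of its start site, and the capitals began 122 bases upstream. The Med4 promoter (chr14:73509799-73510098, plus strand; Med4 encodes a Mediator subunit) lay 0.049 kb beyond the end of the TAD of Rb1, with summits 157 and 127 bases and capitals 110 bases upstream. The Thumpd2 promoter (chr17:81065036-81065335, minus strand) and the Kifap3 promoter (chr1:163779333-163779632, plus strand) held 1 match each as well. The Ephb1 promoter (chr9:102354644-102354943, minus strand) held no match to AGGNGGC, and its start lay 0.307 kb inside the end of the TAD chr9:102035001-102355000. Ephb1 encodes an ephrin receptor. Other forms of the CTCF motif were not searched, so that the lack of a match does not mean that the motif is absent. The letters were present in 33.9% of all 20085 promoters, in 35.9% of the 351 at ends of unmatched TADs, and in 163 of 221 promoters with a summit in both lens lists (73.8%). A match is a description of the sequence and not a measured binding site.

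Unmatched TADs were found on every chromosome tested and made up more than 50% of the large fiber TADs on 19 of 19. Their share ran from 58.8% on chromosome 8 to 81.2% on chromosome 6, with 30 of 51 and 52 of 64 TADs. Their lengths ran from 305 to 2000 kb with a median of 470 kb, against 440 kb for matched TADs, and 74 of them exceeded 1 Mb. Together they covered 422.76 Mb, and 47 lay inside another fiber TAD. At the length limit, 22 unmatched TADs measured 305 kb, and the longest fiber TAD below the limit measured 220 kb. The limit therefore fell into a gap of the fiber list rather than into a dense range of lengths. At the position limit, 31 unmatched TADs had their nearest ES TAD 30 kb away at the farther end, and 34 matched TADs had theirs at 25 kb. One of those 31 is the TAD of Jun, chr4:94995001-95915000, a gene for a subunit of the transcription factor AP-1: an ES TAD of 960 kb ran from 94985001 to 95945000. Such a TAD differs from its ES neighbour by little more than the tolerance.

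**Figure D1:**
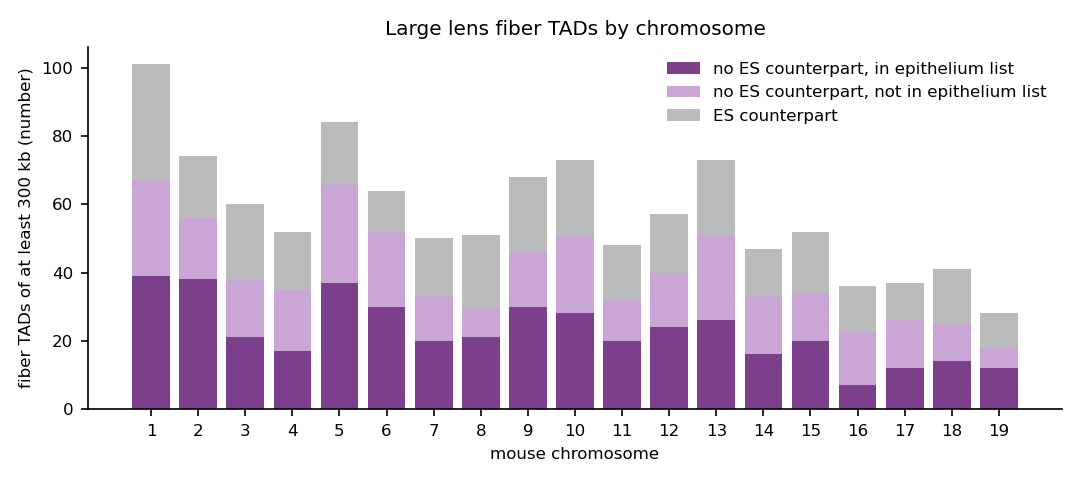
Number of lens fiber TADs of at least 300 kb (y axis) on each mouse chromosome (x axis), split into unmatched TADs with an epithelium counterpart (dark purple), unmatched TADs without one (light purple) and matched TADs (grey). Unmatched TADs outnumber matched ones on 19 of 19 chromosomes, and chromosome 16 has the fewest with an epithelium counterpart, 7 of 23.

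The farther end of the nearest ES TAD was in most cases far away. It lay over 25 and up to 50 kb away for 105 unmatched TADs, up to 100 kb for 82 more, up to 250 kb for 172, up to 500 kb for 188, up to 1000 kb for 120 and beyond that for 89. The median was 275 kb. An epithelium counterpart was present for 63.8% of the nearest of these 6 classes and for 40.4% of the farthest.

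Next, the epithelium list was consulted, which the rule did not use. Of the 756 unmatched TADs, 432 (57.1%, interval 53.6 to 60.6%) had an epithelium TAD with both ends within 25 kb. Of the 340 matched TADs, 258 did (75.9%, interval 71.1 to 80.1%), and over all large fiber TADs the share was 63%. The intervals do not overlap, and the share was lower for unmatched TADs on 17 of 19 chromosomes. More than 50% of the TADs that the ES list lacked were thus present with the same ends in the other lens cell type, at a rate below that of TADs that the ES list shared. The median distance to the nearest epithelium TAD was 15 kb for unmatched TADs. Those with an epithelium counterpart were shorter, at a median of 447.5 kb, than the 324 without, at 522.5 kb.

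The same rule was applied in each direction between the lists. Of the large epithelium TADs, 727 of 1052 had no ES counterpart, and of the large ES TADs, 555 of 894 had no fiber counterpart and 569 no epithelium counterpart. Lack of a counterpart was therefore common from either side, and between the lens lists too, where 406 of 1096 fiber TADs had no epithelium counterpart.

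At an unmatched TAD, the ES list most often held smaller TADs. In 369 of the 756 (48.8%), ES TADs lay inside, within 25 kb of the ends, and no ES TAD contained the whole. In 203 (26.9%) no ES TAD overlapped at all, in 159 (21.0%) a larger ES TAD contained the fiber TAD, and in 25 (3.31%) ES TADs overlapped in part only. Counting all classes, 374 unmatched TADs (49.5%) had at least 1 ES TAD inside, against 65.1% of all large fiber TADs, a share that includes the counterparts of the matched ones. Without counterparts, 13 of 340 matched TADs (3.82%) had one. By the rule, a counterpart already spanned each matched TAD, so that this share is no reference level for the 49.5%. A single ES TAD lay inside 281 of the unmatched TADs, 2 inside 76, 3 inside 15 and 4 inside 2, with nested ES TADs counted separately. These ES TADs covered a median of 48.4% of the fiber TAD, and in 41 they reached both of its ends.

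The ends themselves were often shared even where the TAD was not. Of 1512 ends, 604 (39.9%) lay within 25 kb of an end of some ES TAD. Both ends did so in 100 unmatched TADs, 1 end in 404 and neither in 252. The rule removed the TADs whose ends both matched 1 ES TAD, and over all large fiber TADs both ends were shared in 440 of 1096.

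The lists differ in the sizes they hold, and this bears on what can lie inside. Of 3575 ES TADs, 2681 were under 300 kb, against 1532 of 2628 in fiber (58.3%) and 737 of 1789 in epithelium (41.2%). Between 200 and 300 kb, the ES list held 320 TADs, the fiber list 3 and the epithelium list 0. Loops with anchors of 5 kb, the finest width, made up 40.3% of the ES loop list, 16.3% of the fiber list and 18.6% of the epithelium list. No fiber TAD under 300 kb lay inside any unmatched TAD, 5 contained an epithelium TAD of that size and 263 (34.8%) an ES TAD of that size. For inner TADs of 300 kb or more, the counts were 52 for fiber, 78 (10.3%) for epithelium and 133 (17.6%) for ES. Of the 486 ES TADs inside, 344 were thus under 300 kb. Between the lens lists, the counts depended on the direction. Of 362 large epithelium TADs without a fiber counterpart, 244 (67.4%) held a fiber TAD, and 159 (43.9%) one under 300 kb. Of 406 large fiber TADs without an epithelium counterpart, 90 (22.2%) held an epithelium TAD, and 10 (2.46%) one under 300 kb. The part of list composition in these counts was not tested. In the opposite direction, 238 of the 555 large ES TADs without a fiber counterpart (42.9%) had a fiber TAD inside, 89 of them (16.0% of the 555) one under 300 kb and 156 (28.1%) a larger one.

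**Figure D2:**
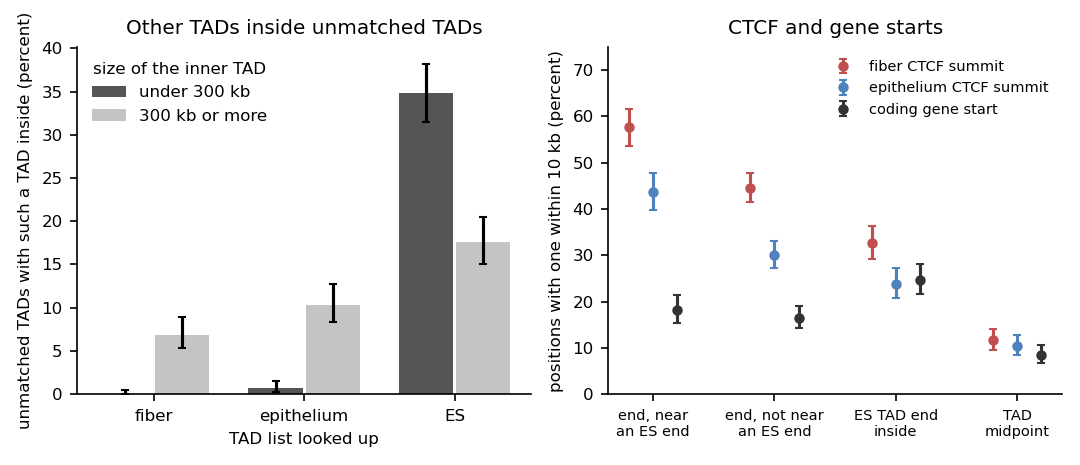
Left, share of the 756 unmatched TADs (y axis, percent) that hold a TAD of each list other than a counterpart (x axis), for inner TADs under 300 kb (dark) and of 300 kb or more (light). Right, share of positions (y axis, percent) with a fiber CTCF summit (red), an epithelium CTCF summit (blue) or a protein-coding gene start (black) within 10 kb, for ends of unmatched TADs near or not near an ES TAD end, for ES TAD ends inside them and for their midpoints. Bars are 95% Wilson intervals; ES TADs under 300 kb lie inside 34.8%, and ES ends inside hold fiber CTCF less often (32.6%) than either kind of TAD end and more often than midpoints.

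The unmatched TADs with an epithelium counterpart and most ES TADs inside showed this layout most plainly. The TAD chr2:127855001-128590000 had a length of 735 kb and held Acoxl, which encodes an acyl-CoA oxidase-like protein, and Bcl2l11, which encodes the pro-apoptotic protein BIM. An epithelium TAD matched its ends within 5 kb. The ES list had 4 TADs inside, of 230, 175, 275 and 180 kb, of which the second lay within the first, the first starting at 127865001 and the last ending at 128590000, and together they covered 93.2% of the fiber TAD. Fiber cells had 5 loops inside it and ES cells 3, among them loops at the same place in all 3 lists, 270 to 540 kb from the TAD start, with 73 observed contacts in fiber, 54 in epithelium and 81 in ES cells, at 3.51-fold, 3.30-fold and 2.15-fold over expected. The widest fiber loop ran from 40 to 720 kb with 47 observed against 14.2 expected contacts, and the widest epithelium loop from 32.5 to 707.5 kb with 138 against 43.8. In ES cells the widest loop inside ran from 40 to 550 kb, with 83 against 30.3, and a further one ran from 562.5 to 717.5 kb. Both lens lists also held loops close to these ES loops. They ran from 30 to 550 and 547.5 to 717.5 kb in fiber, and from 40 to 550 and 550 to 720 kb in epithelium. A wider ES loop, from 40 kb before the TAD to 800 kb, spanned the whole interval from outside.

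The TAD chr5:117105001-117495000 (390 kb, with Taok3, Vsig10, Wsb2, Rfc5 and Pebp1) also held 4 ES TADs, some of them overlapping, which covered 89.7% of it. It had a corner loop in fiber, with 33 observed and 6.99 expected contacts, and in epithelium, with 91 and 29.9, and none in ES cells, where a single loop lay inside. On the same chromosome its neighbour chr5:117505001-117955000 (450 kb) held Ksr2, a scaffold of the MAP kinase pathway, and Nos1, the neuronal nitric oxide synthase. There the ES list had 3 TADs inside, with that of 240 kb lying within that of 320 kb. A corner loop was in all 3 lists, at 4.58-fold over expected in fiber, 4.38-fold in epithelium and 4.23-fold in ES cells. Inner ES TADs were thus found both with and without a loop across the whole interval.

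The other TADs named for their number of ES TADs inside each held 3, nested in part at Grhl2 and Lpgat1. They were the TADs of Cdh13 (1705 kb, a cadherin), Srrm4 and Hspb8 (1055 kb, a splicing regulator and a small heat shock protein), Grhl2 (845 kb, an epithelial transcription factor), Cdx2, Pdx1 and Gsx1 (670 kb, the ParaHox genes), Cds2 and Mcm8 (650 kb), and Lpgat1 and Dtl (525 kb). The last of the 10 was chr11:96270001-96745000, 475 kb long, which held Hoxb1 to Hoxb9 and Skap1, a T cell adaptor. Its 3 ES TADs measured 85, 315 and 110 kb, the last within the second, and the first, from 96270001 to 96355000, ended inside the Hoxb genes. ES cells listed 4 loops inside it, fiber cells 3 and epithelium 1, and a loop from the TAD start region to 592.5 or 595 kb, beyond the TAD end, was in all 3 lists.

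**Figure D3:**
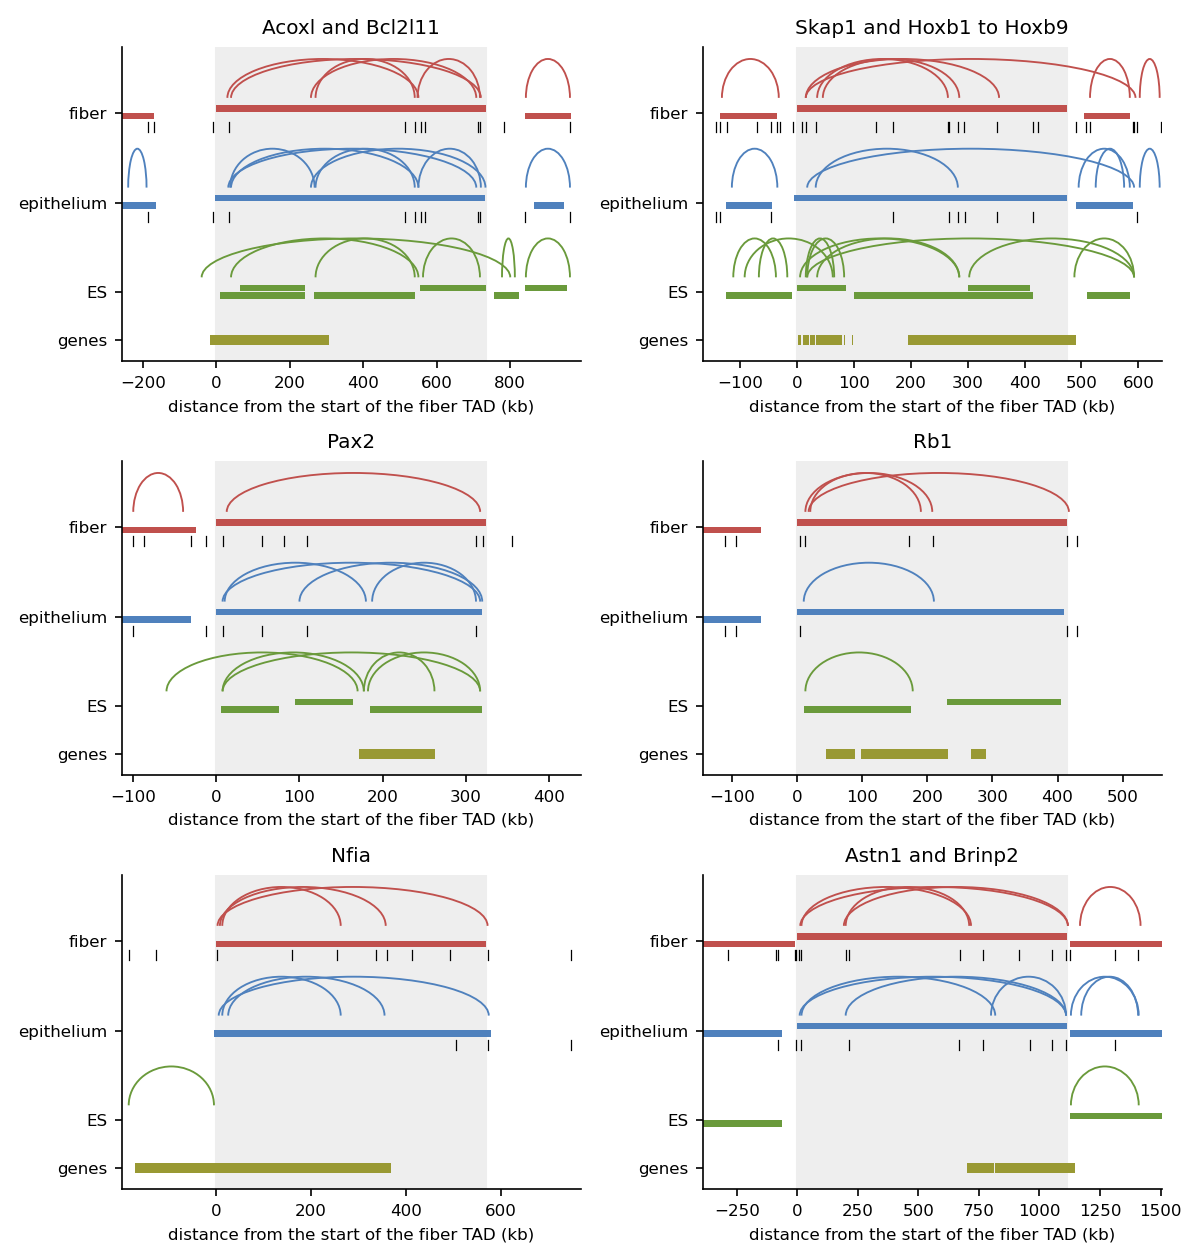
TADs (bars), loops (arcs), CTCF summits (black ticks, lens lists only) and protein-coding genes with their midpoint in the TAD (olive) for 6 unmatched fiber TADs, against the distance from the start of the fiber TAD in kb (x axis); grey shading marks the fiber TAD. Rows are fiber (red), epithelium (blue) and ES (green); arc height carries no value. The Acoxl and Pax2 TADs hold 4 and 3 ES TADs, while the Nfia and Astn1 TADs have lens corner loops and no ES TAD or ES loop inside.

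Turning to loops, corner loops were listed for 334 unmatched TADs in fiber (44.2%), for 349 in epithelium (46.2%) and for 259 in ES cells (34.3%), where all large fiber TADs gave 49.7%, 52.2% and 41.1%. The matched TADs stood higher in each list, at 62.1%, 65.6% and 56.5%, with intervals that do not overlap those of the unmatched ones. The loops were called from the same Hi-C maps as the TADs, so that they are no independent readout. In the joint count, 194 unmatched TADs (25.7%) had a corner loop in all 3 lists and 332 (43.9%) in none. A corner loop was listed in both lens cell types and not in ES cells for 93 (12.3%, interval 10.1 to 14.8%), against 31 matched TADs (9.12%), whose interval overlaps. It was listed in ES cells alone for 28, in fiber alone for 29, in epithelium alone for 43 and in ES cells and 1 lens list for 37. Among the 203 unmatched TADs that overlapped no ES TAD, 65 had an ES corner loop.

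The strength of a corner loop, its observed contacts over those expected from the surrounding donut of the map, was similar across lists. Its median over unmatched TADs was 3.43 in fiber, 3.67 in epithelium and 3.48 in ES cells, and 3.74, 4.18 and 4.05 over matched TADs. In the 194 unmatched TADs with a corner loop in all 3 lists, the fiber value exceeded the ES value in 124, and it did so in 72 of 162 matched TADs. The epithelium value exceeded the ES value in 131 and 92 of them. These ratios depend on anchor width, in which the lists differ, and its part was not tested. Their medians were 3.87 in fiber and 3.62 in ES cells for unmatched TADs, and 4.03 and 4.23 for matched ones.

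Of the unmatched TADs with an ES corner loop, 71.4% had an epithelium counterpart, against 49.7% of those without. Over all large fiber TADs these shares were 76.3% and 53.6%, so that the difference was not particular to the unmatched ones. Loops anywhere inside were listed for 86.2% of unmatched TADs in fiber, 87.8% in epithelium and 78.3% in ES cells, at 3.04, 3.29 and 2.94 loops per Mb. Loops of up to 3 Mb that crossed an end, with 1 anchor inside and 1 outside, were listed in ES cells for 192 unmatched TADs (25.4%, interval 22.4 to 28.6%), against 45 matched TADs (13.2%, interval 10.0 to 17.3%). In fiber they were listed for 82 unmatched TADs (10.8%, interval 8.82 to 13.3%) and 17 matched TADs (5.0%, interval 3.14 to 7.86%), and in epithelium for 93 (12.3%) and 30 (8.82%), with overlapping intervals. The share was thus higher at unmatched TADs in each of the lists, with intervals that overlapped in epithelium. The rule used ES and fiber TADs called from the same maps as the ES and fiber loops. The contrasts in ES cells and in fiber are therefore descriptions and no independent results. Crossing ES loops numbered 291 and crossing fiber loops 97, although the lists held 8205 and 7502 loops on these chromosomes.

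**Figure D4:**
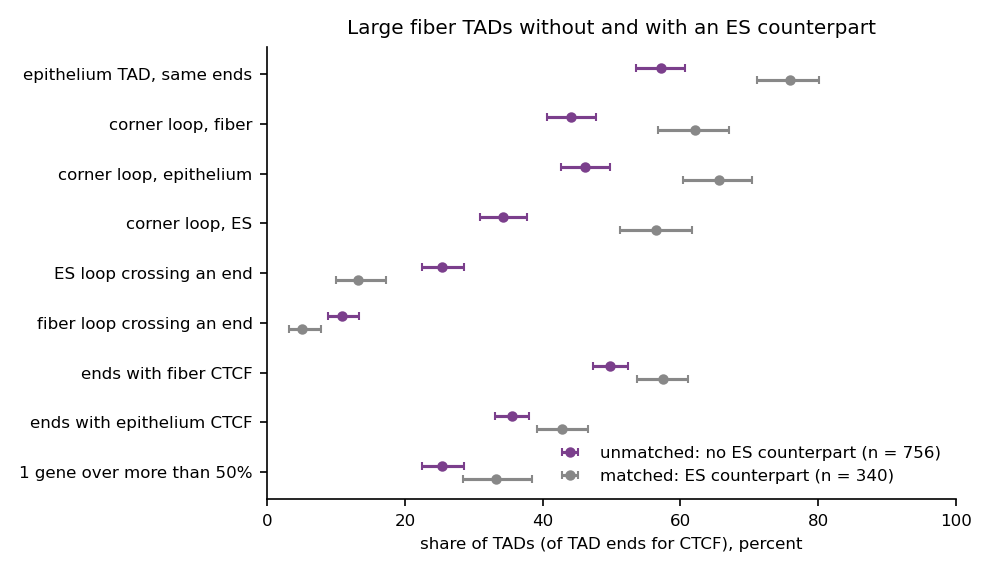
Share (x axis, percent) of unmatched (purple) and matched (grey) large fiber TADs with each feature listed on the y axis; for CTCF the share is of TAD ends. Points are shares and bars 95% Wilson intervals; unmatched TADs are lower for the epithelium counterpart and the 3 corner loops and higher for ES loops crossing an end.

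Among TADs with a corner loop in both lens lists and none in ES cells, the highest fiber value was at the TAD chr17:30465001-30920000, which held Dnah8, an axonemal dynein chain, Glp1r and Glo1. Its corner loop had 29 observed and 2.40 expected contacts in fiber and 32 observed and 1.45 expected in epithelium, which are small counts. No CTCF summit of the fiber list lay within 10 kb of either end, while the epithelium list held a summit near the start and none near the end. The epithelium list held no TAD with these ends, and the ES list a TAD of 185 kb that overlapped in part.

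At Nfia, which encodes a nuclear factor I transcription factor, the fiber TAD chr4:97750001-98320000 (570 kb) had an epithelium counterpart within 10 kb and no ES TAD overlapped it. The corner loop had 21 observed against 3.93 expected contacts in fiber and 32 against 9.99 in epithelium. Each lens list held 3 loops inside and the ES list 0.

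At Astn1 and Brinp2, which are neuronal genes, the TAD chr1:157545001-158660000 (1115 kb) was matched in epithelium with both ends at the same position. Its corner loop had 19 observed against 3.36 expected contacts in fiber and 36 against 7.86 in epithelium. There were 4 loops inside in each lens list and no loop or TAD in ES cells. Both lens lists thus held a complete domain where the ES lists were empty.

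Of the 10 TADs ranked in this way, 7 had an epithelium counterpart, 5 overlapped no ES TAD and 7 had an ES loop inside. The TAD chr14:12150001-12545000 held Fezf2, a forebrain transcription factor, and part of Cadps. It showed 18 observed corner contacts in fiber and 14 in epithelium, at 7.21-fold and 8.81-fold over expected. The others held Depdc1b and part of Pde4d, Cachd1 and Raver2, Helb and part of Grip1, Plpp3, Pla2g4a and Ptgs2, and the Taok3 group described above. At Depdc1b, the fiber TAD of 865 kb differed from an ES TAD of 815 kb and an epithelium TAD of 810 kb by 55 kb at the farther end. At Ptgs2, which encodes the prostaglandin synthase COX-2, an ES TAD of 500 kb contained the 440 kb fiber TAD, and its farther end lay 50 kb away.

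CTCF in the lens was measured apart from Hi-C. A fiber summit lay within 10 kb of 753 of the 1512 ends of unmatched TADs (49.8%, interval 47.3 to 52.3%), where ends of all large fiber TADs gave 52.2%. The matched TADs had 57.5% (interval 53.8 to 61.2%), and the unmatched share was the lower one on 17 of 19 chromosomes. An epithelium summit was found at 537 ends (35.5%), against 37.8% over all large fiber TADs and 42.8% at matched ends. At the midpoints of unmatched TADs, 11.6% had a fiber summit and 10.3% an epithelium summit, and at the midpoints of matched TADs 5.29% and 3.82%. CTCF was thus far more frequent at the ends than at the centre in both sets. The epithelium list held 15799 peaks and the fiber list 23132, so that their shares cannot be set against each other directly.

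Ends shared with an ES TAD end carried CTCF more often than unshared ends of the same set. A fiber summit was present at 57.6% of the 604 shared ends (interval 53.6 to 61.5%) and at 44.6% of the 908 unshared ends (interval 41.4 to 47.9%). In the epithelium list the shares were 43.7% and 30.1%. The value at shared ends was close to the 57.5% at matched TADs. Unmatched TADs with an epithelium counterpart had a fiber summit at 56.9% of ends, and those without at 40.3%. Both ends were occupied in 204 unmatched TADs, in 128 of 334 with a fiber corner loop (38.3%) and in 76 of 422 without one. Over all large fiber TADs both ends were occupied in 29.4%, in 40.2% of those with a fiber corner loop and in 18.7% of those without one, close to these values.

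ES TAD ends that lay over 25 kb inside an unmatched TAD were present in 394 of them and numbered 647. A fiber CTCF summit was within 10 kb of 32.6% (interval 29.1 to 36.3%) and an epithelium summit within 10 kb of 23.8%, between the values of TAD ends and midpoints. An ES loop anchor lay within 10 kb of 39.7% of them, and a fiber loop anchor within 10 kb of 27.5%. At the ends of the unmatched TADs these anchor shares were 39.8% and 40.1%. A protein-coding gene start was found at 24.7% of the inner ES ends (interval 21.6 to 28.2%), at 17.2% of unmatched TAD ends (interval 15.4 to 19.2%) and at 8.48% of midpoints. At the 788 ends of the 394 TADs that contained these ES ends, a fiber summit was found at 52.9% (interval 49.4 to 56.4%) and a gene start at 21.3% (interval 18.6 to 24.3%). The inner ES ends therefore had lens CTCF less often than the ends of the TADs around them, whereas the intervals for gene starts overlapped. No CTCF list of ES cells was used, so that these counts do not give CTCF at ES ends in ES cells.

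**Figure D5:**
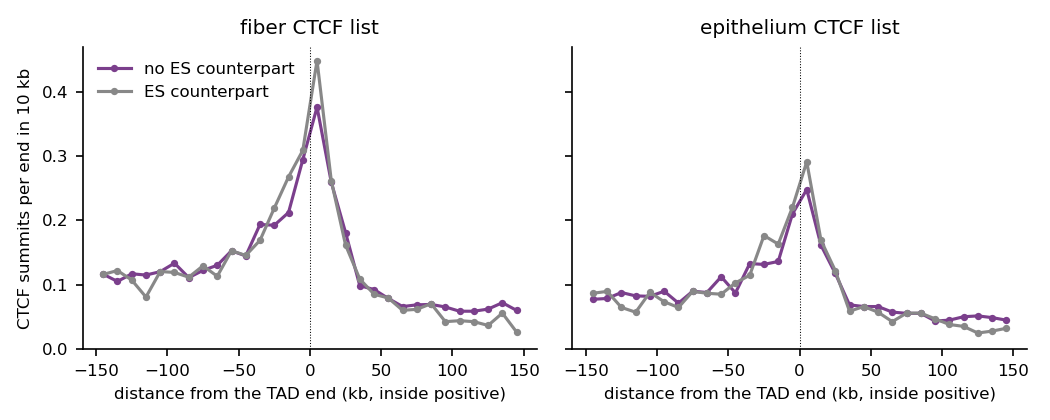
CTCF summits per TAD end in windows of 10 kb (y axis) against the distance of the window centre from the end in kb (x axis, positive inside the TAD), for the fiber (left) and epithelium (right) peak lists and for unmatched (purple) and matched (grey) TADs. The highest window is the first one inside the end in each curve, with 0.376 fiber summits per end for unmatched and 0.449 for matched TADs.

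The unmatched TADs held the midpoints of 1979 protein-coding genes, 9.58% of the 20665 on these chromosomes. They had a median of 2 genes each. A single gene lay in 264 (34.9%), 10 or more in 24 (3.17%) and none in 42 (5.56%). Over all large fiber TADs these shares were close, at 37.6%, 2.92% and 5.75%. The density of unmatched TADs was 4.64 genes per Mb and that of matched TADs 4.24. The order differed between chromosomes, with a higher density in unmatched TADs on 11 of 19. The classes by ES layout differed more. Unmatched TADs that held ES TADs had 6.25 genes per Mb and 10.3 fiber CTCF summits per Mb, those with no overlapping ES TAD 3.18 genes and 5.87 summits, and those within a larger ES TAD 3.12 genes and 6.38 summits. Genes and CTCF summits were thus densest in the unmatched TADs with ES TADs inside. A single gene covered more than 50% of the length in 25.4% of unmatched TADs and in 33.2% of matched TADs.

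The longest unmatched TADs held few genes. Of the 10 longest, which ran from 1855 to 2000 kb, 6 held 1 protein-coding gene, 6 overlapped no ES TAD, 2 had an epithelium counterpart and 1 had a fiber corner loop. The longest, chr12:26480001-28480000, held Sox11, a SoxC transcription factor gene with a role in early eye development. A loop ran from 55 to 1955 kb of it in fiber, with 39 observed and 9.63 expected contacts, and in epithelium, with 29 and 6.79, and from 57.5 to 1957.5 kb in ES cells, with 62 and 25.2. These loops spanned nearly the whole TAD and fell outside the 25 kb allowed for a corner loop. The Sox11 TAD contained no other fiber loop, and its nearest ES and epithelium TADs were over 2000 kb away at the farther end, at 2165 and 2070 kb. The TAD chr1:61035001-62995000 (1960 kb) held Nrp2, a semaphorin and VEGF receptor, and Pard3b, a polarity gene, and was matched in epithelium within 5 kb, as was chr8:107595001-109540000 (1945 kb) with Zfhx3 and Pmfbp1. The ES list had 1 TAD inside each, of 105 and 260 kb.

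The remaining 7 of the 10 had neither an epithelium nor an ES counterpart. They held Pou3f3, a POU-domain factor gene (chr1:40865001-42810000), Epha4, an ephrin receptor gene (chr1:75625001-77570000), Tle4, a Groucho co-repressor gene (chr19:13940001-15835000), Tafa1, Suclg2, Tafa4 and Kbtbd8 (chr6:95065001-96955000), Klf6 (chr13:4645001-6505000), Marcks and Rfpl4b (chr10:37015001-38870000), and Mef2c, a MADS-box factor gene (chr13:81810001-83665000). The Mef2c TAD had a corner loop in fiber at 2.88-fold and in epithelium at 3.41-fold over expected.

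Genes of 8 lists on lens, cell cycle, pluripotency, chromatin architecture and neural adhesion were then located. Of 214 list entries with a position, 34 (15.9%) lay in unmatched TADs and 11 in matched TADs only, where 9.58% and 3.51% of all protein-coding genes did. The lists were chosen with earlier results known, and these counts are given as a description. The 34 TADs that held such genes comprised 23 with an epithelium counterpart.

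Among 41 lens transcription factors, 11 lay in unmatched TADs. Pax2, a paired box gene of the optic stalk, lay in chr19:44575001-44900000 (325 kb), matched in epithelium within 5 kb. The ES list had 3 TADs inside, of 70, 70 and 135 kb, and a corner loop was present in all lists, at 3.95-fold over expected in fiber, 4.72-fold in epithelium and 4.07-fold in ES cells. ES cells also had loops from the middle of this TAD, 172.5 kb from its start, to 577.5 and 662.5 kb, outside the TAD, at 11.7-fold and 13.4-fold over expected, which neither lens list held. The Pax2 TAD thus had a corner loop in each cell type, and in ES cells further loops that left it.

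Maf, which encodes a driver of crystallin expression, lay at the very start of chr8:115705001-116450000 (745 kb). An epithelium TAD matched it within 10 kb, and a larger ES TAD of 2020 kb, from 114445001 to 116465000, contained it. The corner loop had 119 observed against 54.1 expected contacts in fiber and 111 against 41.0 in epithelium, and the ES list held no loop inside. Dlx5 and Dlx6 lay in chr6:5990001-6905000 (915 kb) within an ES TAD of 1065 kb, and the corner loop was in all 3 lists. Six3, a homeobox gene needed for lens formation, lay at the end of chr17:85185001-85630000 (445 kb), which had no epithelium counterpart. The lens corner loops there were at 2.88-fold over expected in fiber and 2.90-fold in epithelium, and the ES list had a TAD of 80 kb over Six3 itself, from 85610001 to 85690000.

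Foxc1, an anterior segment gene, was in 2 overlapping unmatched TADs of 410 and 990 kb, both of them with epithelium counterparts, and the shorter one had a corner loop in all 3 lists. Sall1 (550 kb) and Tbx3 (860 kb), a gene also on the pluripotency list, lay near one end of their TADs and shared that arrangement with Maf and Six3. The ETS factor gene Etv5 shared chr16:22285001-22835000 (550 kb) with Crygs, the only one of 19 crystallin genes in an unmatched TAD. The ES list had 3 TADs inside, of 80, 110 and 250 kb, and neither the epithelium nor the ES list a counterpart. Six5 lay in a gene-dense TAD of 305 kb with 19 genes.

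Of 35 genes of the fiber membrane, cytoskeleton and organelle loss, 4 were in unmatched TADs. Vim, the intermediate filament vimentin, lay in chr2:13280001-13590000 (310 kb), where an ES TAD of 245 kb shared the start and the corner loop was in all 3 lists at 3.21-fold, 3.90-fold and 3.04-fold over expected in fiber, epithelium and ES cells. Gja1, the connexin 43 gene, lay in chr10:56360001-57015000 (655 kb) with no ES or epithelium TAD, although corner loops were listed at 3.86-fold over expected in fiber, 8.82-fold in epithelium, from 17 contacts, and 4.69-fold in ES cells. The adhesion gene Ncam1 (680 kb) lay within a larger ES TAD of 940 kb, and Atg5, an autophagy gene, shared a TAD of 760 kb with Prdm1. Of 30 signalling genes, Igf1r (580 kb) and Fzd6 (325 kb) were in unmatched TADs, both of them with epithelium counterparts, and 7 others were in matched TADs only.

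Of 12 cell cycle exit genes, 4 lay in unmatched TADs with an epithelium counterpart each. The Rb1 TAD, chr14:73095001-73510000 (415 kb), ends at the Med4 promoter printed above. The ES list had 2 TADs inside, of 165 and 175 kb, and the corner loop was listed in fiber alone, with 69 observed against 28.4 expected contacts. Both fiber and epithelium CTCF were within 10 kb of each of its ends. Cdkn1c, the cell cycle inhibitor p57, lay in chr7:143150001-143465000 (315 kb) with Kcnq1. Its corner loop was among the strong ones in all 3 lists, at 7.33-fold in fiber, 7.19-fold in epithelium and 6.54-fold in ES cells, although no ES TAD had these ends. Cdkn2a (385 kb, with Cdkn2b and Mtap) had corner loops in all 3 lists and no overlapping ES TAD. Ccnd1, the cyclin D1 gene, lay in a TAD of 330 kb with corner loops in epithelium and ES cells and none in fiber. Of these 4 TADs, 3 thus had an ES corner loop although the ES list had no TAD with their ends, and the Rb1 TAD had neither.

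Of 24 pluripotency genes, 4 were in unmatched TADs. Klf4 lay in chr4:55510001-56510000 (1000 kb) within 2 larger ES TADs of 1230 and 1100 kb, and its corner loop had 37 observed contacts in fiber, 42 in epithelium and 118 in ES cells, at 2.95-fold, 3.97-fold and 2.10-fold over expected. Esrrb (515 kb), an orphan nuclear receptor gene, had no overlapping ES TAD and corner loops in all 3 lists, and Prdm14 (635 kb) had 1 ES TAD of 80 kb inside. Of 10 architecture genes with a position, the cohesin gene Stag1 (705 kb) and the cohesin cofactor gene Pds5a (305 kb) were in unmatched TADs, both matched in epithelium.

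Of 43 neural adhesion and synapse genes, 6 were in unmatched TADs, and several of these genes were as long as the TAD. Dlg2, a synaptic scaffold gene, covered 100% of chr7:91445001-92050000, which had an epithelium counterpart, corner loops in both lens lists and none in ES cells. Pcdh9, a protocadherin gene, covered 100% of chr14:93315001-93890000, Pcdh7 99.6% of a TAD of 310 kb and Slit3 96.2% of one of 305 kb, which lay inside a second unmatched TAD of 835 kb. No ES TAD overlapped those of Dlg2, Pcdh9, Pcdh7 and Sema3c, but an ES corner loop was listed for Pcdh9, at 3.55-fold over expected against 3.41-fold in fiber and 6.12-fold in epithelium, and for Sema3c, at a lower value than the 5.24-fold in fiber. Sema3d lay in a TAD of 605 kb at the position limit, whose nearest ES TAD, of 570 kb, was 30 kb away.

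Several members of some gene clusters lay together in unmatched TADs. Besides the Hoxb genes, Hoxd1, Hoxd3, Hoxd4, Hoxd8 and Hoxd9 were in chr2:74690001-75590000 (900 kb) and in a TAD of 445 kb nested in it, each with an ES TAD inside and corner loops in all 3 lists. A TAD of 670 kb on chromosome 15 held 24 keratin genes, and TADs of 330 and 345 kb, both within a larger ES TAD, held 11 Serpina and 7 Serpinb genes. By contrast, 2.45% of olfactory receptor genes were in unmatched TADs. The families were picked with their values in view and carry no test.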

How the data were processed

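Hi-C covered 3 cell types, and CTCF ChIP-seq the lens epithelium and the lens fibers. Alignment of Hi-C reads to mm10 was done by the authors with BWA. They built contact maps with Juicer at up to 5 kb from both replicates merged and called TADs with Arrowhead and loops with HiCCUPS. The deposited TAD lists hold start and end positions and no score. The deposited loop lists give the observed count of contacts, the expected signal from the surrounding donut, from which a ratio of observed over expected was computed here, and the donut FDR, a q-value by the authors' run of HiCCUPS. The methods name 2 biological replicates for CTCF ChIP-seq, and 1 peak list per lens cell type was used here. CTCF peaks were called by the authors with MACS2, and the deposited lists give a fold enrichment and the −log10 of the q-value. Read depth is not in these lists and was not used, and the number of contacts behind a corner loop limits its precision.

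Counterparts, inner TADs, loops and genes were derived in Python (3.11.15) using pandas (2.3.3) and numpy (2.4.6). Intervals came from scipy (1.17.1), and plots from matplotlib (3.10.9). A corner loop had both anchor midpoints within 25 kb of the TAD ends. A loop or TAD inside could exceed an end by 25 kb. A gene was inside when its midpoint was (RefSeq, GRCm38.p6). The functions were checked on 200 simulated TADs, and 14 of 14 checks gave the known answer. With 1 merged list per cell type no test was made.

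TADs named are the 10 longest, the 10 with an epithelium counterpart and most ES TADs inside, the 10 with the strongest fiber corner loops among those looped in both lens lists and not in ES cells, those holding a listed gene, and those next to the limits. In the first 3 groups, genes came from the 6 longest inside each TAD. Gene families, the Hox TADs and the ParaHox genes were picked with their values in view. The members and lists were chosen with earlier results of these data known.

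Alternatives were other tolerances (10 or 50 kb), a minimum of 500 kb, reciprocal overlap of at least 80%, outermost fiber TADs, wider or stricter windows for loops, inner TADs and CTCF, loops with an FDR under 1%, and whole genes inside. Compartments and expression were not analysed here, and 1 gene cluster is not reported here.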

Additional observations from a re-analysis of the deposited data

How the results depend on the processing

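No paired analysis was possible because the replicates were merged before TADs and loops were called. Of 70 values under 11 alternatives, 46 moved by less than their counting interval (for the number of unmatched TADs, by less than 1.5 times), and 24 moved more. Changes in the order of unmatched and matched TADs were not counted. With a tolerance of 10 kb, the epithelium share was 50.4% for unmatched and 68.6% for matched TADs, 28.7% of ends lay at ES ends and 57.8% of unmatched TADs held an ES TAD. At 50 kb, 49.6% of ends lay at ES ends. With a minimum of 500 kb, 346 TADs were unmatched, 50.3% of them and 68.3% of matched TADs had an epithelium counterpart, 81.2% held an ES loop and 96.5% a gene, corner loops were at 38.7% in fiber, 40.5% in epithelium and 26.3% in ES cells, and 46.7% of ends had fiber CTCF. By reciprocal overlap of at least 80%, the epithelium shares were 63.5% and 80.4%, and 37.2% of ends lay at ES ends. With corner anchors within 50 kb, shares were 64.3%, 66.5% and 47.4%. Without slack, 41.1% of unmatched TADs held an ES TAD, against 34.1% of matched TADs. With slack the order was the opposite, since every matched TAD then held its counterpart. With CTCF within 25 kb, 77.1% (fiber) and 58.3% (epithelium) of ends were occupied. With whole genes inside, 78.2% held a gene. Unmatched TADs stayed below matched ones in the epithelium share, corner loops and CTCF under each alternative run for them. By reciprocal overlap the CTCF gap narrowed, to 50.7% against 53.9% in fiber and 36.3% against 39.4% in epithelium. The number of unmatched TADs itself ran from 346 to 905. A TAD or loop that a list lacks may lie below the caller's threshold, and without replicate lists this could not be assessed.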

Other observations

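Chromosome X was left out of the rule. By the same limits it held 9 large fiber TADs, of which 7 had no ES counterpart, and 3 of these 7 had an epithelium counterpart.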
